A study of Oryctolagus cuniculus with 4 samples.

Results

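S100A8, S100A9 and S100A12, the calgranulins, were followed through the single-cell RNA sequencing of rabbit bladder mucosa. They are 3 of the 18475 genes in the tables and 3 of the 11 S100 genes that carry a symbol there, and were found by symbol (S100A8, ENSOCUG00000009566; S100A9, ENSOCUG00000008632; S100A12, ENSOCUG00000022646). They were picked because they were high in myeloid cells and present in epithelial cells of these same samples, so their levels across cell types are given as a description, without a test. The animals were adult New Zealand rabbits. Injury_1 and Injury_2 were taken on day 10 after a focal resection of the full-thickness mucosa, when new urothelium had just closed the wound, and Normal_1 and Normal_2 were mucosa under homeostasis. Where 4 values follow each other, they are those of Injury_1, Injury_2, Normal_1 and Normal_2 in this order. The tissue is labelled urothelium, but the digested mucosa also gave fibroblast-like, endothelial-like, muscle and immune cells.

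Calgranulins are small calcium-binding proteins of the S100 family. S100A8 and S100A9 pair to form calprotectin, which neutrophils store in bulk in the cytosol and which binds zinc and manganese that microbes need. Outside the cell, S100A8 and S100A9 act on Toll-like receptor 4 and S100A12 on the receptor RAGE (AGER), so that they serve as danger signals. Stratified epithelia can also make them in wounds and inflammation. Mice have no S100A12.

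Each library came from 1 sample, and p-values measure only the spread between these samples. The deposited counts are unique molecular identifiers (UMIs), which are numbers of captured molecules. Between 4308 and 6081 cells per sample were kept, with a median of 4813.5 to 7186 UMIs per cell, and Normal_1 was the shallowest. Pairs of libraries shared 8 to 13 barcodes. Levels below are CPM, the UMIs of a gene per 1000000 UMIs of all genes in a group of cells of a sample. Intervals on counts cover counting error only. Clusters were made without the 3 genes. None could be called neutrophil-like by the rule for names. The nearest was a cluster in which all 8 measured neutrophil markers were raised, but which held a median of only 669 to 911 UMIs per cell and had none of them among its leading 10 genes. It is called the CXCR1 cluster here, after the interleukin 8 receptor CXCR1. CXCR1 itself was sparse there, in 8.39% and 6.12% of cells of the injured samples and 0% of those of the normal ones. The cluster had 143 and 49 cells in the injured samples but 5 and 15 in the normal ones, so that its normal values rest on few cells. A second cluster, called the LYZ cluster, had both macrophage and neutrophil markers (111, 89, 20 and 15 cells) and also stayed without a cell type. The name is a working one, since the lysozyme gene LYZ was uneven there, at 0 and 1581 CPM in the injured and 4123 and 64.9 CPM in the normal samples.

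The CXCR1 cluster had the highest level of all 3 genes among the 16 groups of cells. S100A8 stood at 26102 and 18351 CPM in the injured samples and at 20691 and 7662 CPM in the normal ones. S100A9 stood at 42403, 32583, 27515 and 7834 CPM. S100A12 stood at 19513, 13129, 9025 and 3616 CPM. The injured samples lay higher than either normal one for S100A9 and S100A12 but not for S100A8, where Normal_1 was above Injury_2. In Normal_1, 1 of the 5 cells held 85 of the 94 S100A8 UMIs. For S100A9, 1 cell held 121 of 125 UMIs there, and for S100A12, 1 cell held 40 of 41. Each value of Normal_1 thus rests largely on 1 cell. No test was run, because 5 and 15 cells were under the minimum of 20. All 3 genes were found together in 129 of 143 and 34 of 49 injured cells and in 2 of 5 and 7 of 15 normal cells. The same cells carried the chemokine CXCL8 at 48206 to 160640 CPM and the cytokine IL1B at 56909 to 196126 CPM, and the granule gene LTF at 238, 125, 0 and 86.1 CPM. CHI3L1, of the same granule list, stood at 1602, 1207, 1541 and 344 CPM. BPI had 3 UMIs in all, and CAMP, MPO, MMP8, LYZ and CTSG had 0.

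**Figure D1:**
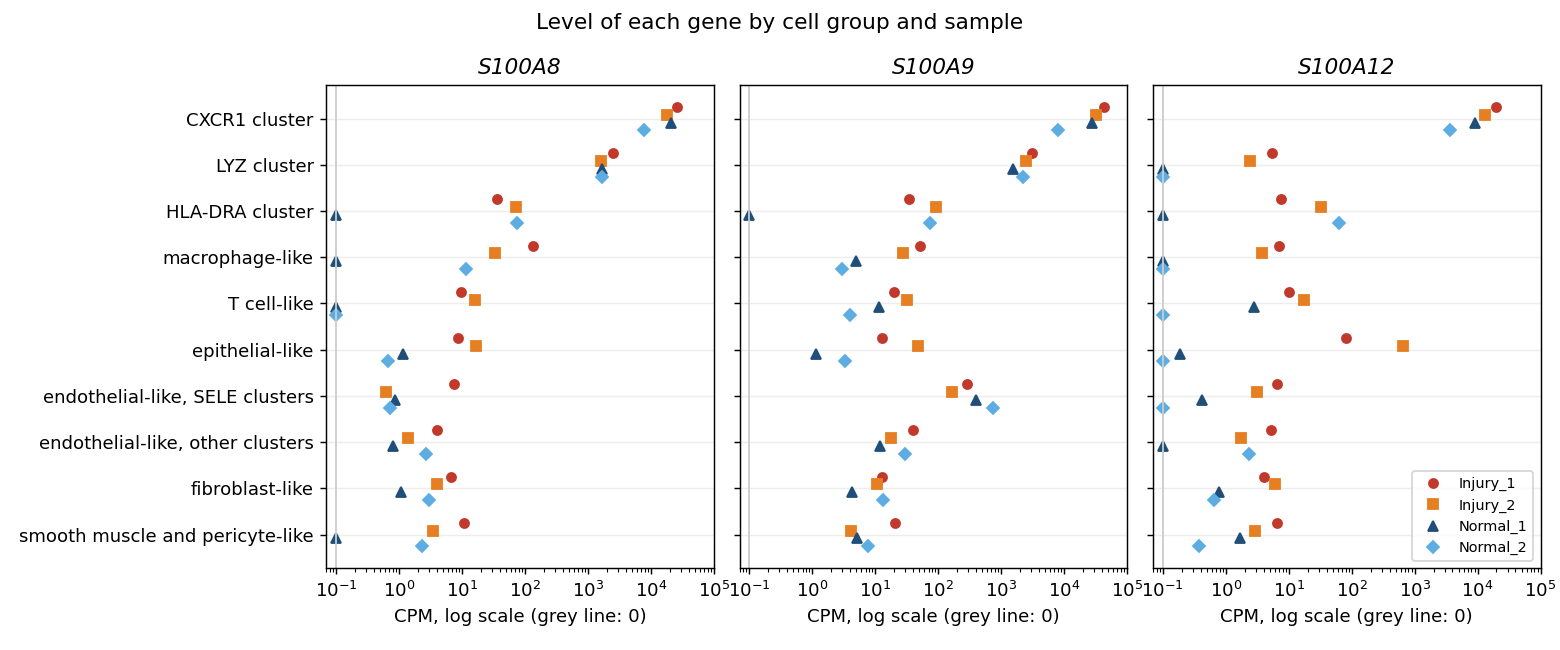
Level of S100A8, S100A9 and S100A12 (CPM, log axis, values of 0 on the grey line) by group of cells, 1 point per sample with a colour and shape for each of the 4 samples. All 3 genes were highest in the CXCR1 cluster, S100A12 was nearly missing from the LYZ cluster, and S100A12 in epithelial-like cells was high in the injured samples alone (81.4 and 648 against 0.19 and 0 CPM).

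The LYZ cluster shared S100A8 and S100A9 with the CXCR1 cluster but lacked S100A12. Its S100A8 level was 2482, 1644, 1652 and 1668 CPM, so the normal samples lay within the range of the injured ones. Its S100A9 level was 3037, 2447, 1566 and 2246 CPM. Of S100A12 it held 5, 2, 0 and 0 UMIs, or 5.37, 2.42, 0 and 0 CPM. S100A12 was thus 0.06% to 0.10% of the UMIs of the 3 genes there in the injured samples, against 20.5% and 22.2% in the CXCR1 cluster of the same samples. These cells also carried SERPINB2, a serine protease inhibitor of activated monocytes, at 1603 to 5869 CPM, while CXCR1 had 1 UMI in all of them. S100A8 and S100A9 were detected together in 95 of 111 cells in Injury_1 and 8 of 15 in Normal_2.

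Macrophage-like cells, defined by complement C1q genes, CSF1R and MRC1, had far lower levels. S100A8 reached 136 and 33.3 CPM in the injured samples, against 0 and 11.7 CPM in the normal ones (385, 62, 0 and 4 UMIs). S100A9 reached 50.4, 27.4, 4.87 and 2.91 CPM (143, 51, 1 and 1 UMIs), and 1 cell of Injury_1 held 61 of its UMIs. Without the highest 5% of doublet scores S100A9 was at 28.2, 27.5, 6.03 and 3.04 CPM. For either gene the 2 conditions did not overlap, and injury was the higher, but the normal samples had very few UMIs. The edgeR quasi-likelihood test called neither (S100A8 log2 fold change 3.44 ± 1.10 (SE), adjusted p = 0.272, and S100A9 3.30 ± 0.77, adjusted p = 0.183). S100A9 passed the filter on low counts through its injured counts alone, so its test adds no support to the counts. The test called 0.505% of the 4557 genes tested in these cells (0.176% higher and 0.329% lower in injured). S100A8 was detected in 17.3%, 8.1%, 0% and 4.6% of macrophage-like cells. At a common depth of 1000 UMIs per cell these shares were 6.88%, 2.18%, 0% and 1.31%, against 0.53%, 0.29%, 0.13% and 0.21% in fibroblast-like cells, which served as the background. A cluster led by HLA-DRA, an antigen-presentation gene, had 36.2, 71.5, 0 and 75.8 CPM of S100A8, with the normal samples at both ends.

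Ordered by the mean over the 4 samples, S100A8 went from the CXCR1 cluster (18202 ± 7740 CPM, SD, n = 4) to the LYZ cluster (1862 ± 414), the HLA-DRA cluster (45.9 ± 35.4), macrophage-like cells (45.1 ± 61.9), epithelial-like cells (6.79 ± 7.51), T cell-like cells (6.44 ± 7.84), smooth muscle and pericyte-like cells (4.18 ± 4.71), fibroblast-like cells (3.70 ± 2.31) and endothelial-like cells (2.47 ± 2.45). S100A9 went from the CXCR1 cluster (27584 ± 14545 CPM) to the LYZ cluster (2324 ± 607), endothelial-like cells (191 ± 77.1), the HLA-DRA cluster (50.3 ± 41.6), macrophage-like cells (21.4 ± 22.3), T cell-like cells (16.7 ± 11.98), epithelial-like cells (16.2 ± 21.6), fibroblast-like cells (10.2 ± 4.18) and smooth muscle and pericyte-like cells (9.33 ± 7.53). S100A12 went from the CXCR1 cluster (11321 ± 6709 CPM) straight to epithelial-like cells (182 ± 313) and then to the HLA-DRA cluster (25.8 ± 28.4), T cell-like cells (7.67 ± 7.94), with all other groups at a mean under 3 CPM apart from mast cell-like cells, which had 3 UMIs. The CXCR1 cluster stood apart from the next group in every sample for all 3 genes, and so did the LYZ cluster for S100A8 and S100A9, while the lower neighbours in these lists overlapped between samples, except that S100A9 in endothelial-like cells (93.85 CPM at the lowest) did not overlap with the HLA-DRA cluster (93.67 CPM at the highest). B cell-like, mast cell-like and glia-like cells and 4 unnamed clusters are left out of these lists.

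Of the UMIs of each gene in a sample, the sources differed between genes and samples. For S100A12, the CXCR1 cluster held 72.8% and 13.99% in the injured and 77.4% and 41.6% in the normal samples, and epithelial-like cells held 20.2%, 80.7%, 1.9% and 0%. The 2 injured samples were thus opposite in their main source. The normal samples had only 53 and 101 S100A12 UMIs in all kept cells, so their shares are coarse. For S100A8, the CXCR1 and LYZ clusters held most UMIs in all 4 samples, with 48.5%, 33.6%, 28.9% and 18.3% in the CXCR1 cluster and 39.3%, 51.7%, 64.6% and 52.8% in the LYZ cluster. For S100A9 the CXCR1 cluster held 48.0% and 31.9% in the injured samples but 5.4% and 2.0% in the normal ones, where endothelial cells held most of it.

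**Figure D2:**
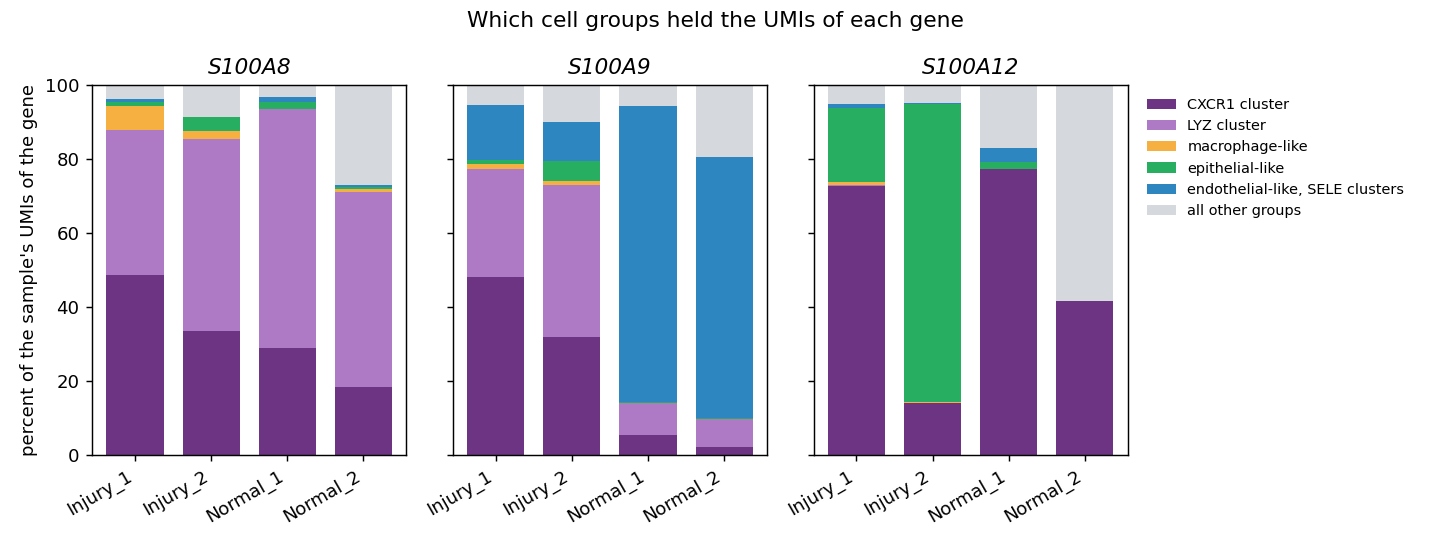
Percent of the UMIs of each gene in a sample that each group of cells held, stacked to 100%, 1 bar per gene and sample. S100A12 came mainly from the CXCR1 cluster in Injury_1 (72.8%) and from epithelial-like cells in Injury_2 (80.7%), and S100A9 of the normal samples came mainly from the SELE endothelial clusters (79.8% and 70.5%).

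Epithelial-like cells, which carried the keratins KRT15 and KRT18 and the adhesion gene EPCAM, had S100A12 in the injured samples almost alone. The gene had 591 UMIs in 567 cells and 3641 UMIs in 354 cells of the injured samples, against 1 UMI in 441 cells and 0 UMIs in 170 cells of the normal ones. As levels these were 81.4, 648, 0.19 and 0 CPM. Over the pooled counts the ratio of injured to normal was 2724, with a 95% counting interval from 489 to 107634, since it stands against a single UMI. All 3 members passed the filter on low counts through their injured counts alone, so each had to differ between conditions to be tested, and the tests add no support to the counts. edgeR called S100A12 higher in the injured samples (log2 fold change 11.17 ± 1.65 (SE), adjusted p = 0.0418), a fitted value that depends on the prior count because the normal samples are at or near 0. S100A12 was the member called among the 3, against 1.70% of the 7041 genes tested in these cells (0.668% higher and 1.04% lower in injured). Without Normal_1 the adjusted p was 0.0524 and the call was lost, while it held with any other single sample left out.

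The share of epithelial-like cells with a UMI of S100A12 was 5.47% (31 of 567) and 11.3% (40 of 354) after injury, and 0.23% (1 of 441) and 0% (0 of 170) in the normal samples. At 1000 UMIs per cell the shares were 1.57%, 6.02%, 0.017% and 0%, and those of fibroblast-like cells were 0.37%, 0.35%, 0.08% and 0.03%. The epithelial shares were above this background in the injured samples and below it in the normal ones. Median depths were 11914, 16315.5, 12916 and 19867.5 UMIs in epithelial-like cells and 8007, 8527, 5088 and 7002.5 in fibroblast-like cells, so the normal epithelial cells were as deep as the injured ones. The difference between the means of injured and normal samples was 3.79 percentage points (two-sided exact permutation test, p = 0.333, adjusted p = 0.333). That is the smallest p that 2 samples against 2 allow, so this test cannot reach 0.05.

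S100A12 was carried by few epithelial cells. In Injury_1, 7 cells with at least 10 UMIs held 91.4% of the epithelial S100A12 UMIs, and in Injury_2, 21 cells held 98.7%. The most in 1 cell was 229 UMIs in Injury_1 and 616 in Injury_2. Of the 7 and 21 cells with at least 10 UMIs, 2 and 3 were within the highest 5% of doublet scores, against 6.92% of all epithelial-like cells. Leaving those scores out kept the share of cells at 1.33% and 5.37% against 0.018% and 0%. The level was then 65.4 and 525 CPM in the injured samples, against 0.198 and 0 CPM in the normal ones.

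The 28 cells with at least 10 S100A12 UMIs were then described against epithelial-like cells of the same sample that had none. The limit of 10 was chosen after the values were seen, so no test is given. All 28 cells carried KRT15, KRT18 and KRT7, and none carried a UMI of the neutrophil genes CXCR1, IL1R2 or G0S2. In the CXCR1 cluster, IL1R2 was at 531 and 583 CPM in the injured samples and G0S2 at 677 and 395 CPM. CXCR1 was found in only 8.39% and 6.12% of the cells of that cluster. Of the ligands that both neutrophils and epithelia make, IL1B was at 29.5 and 13.1 CPM in the high cells, against 114 and 67.0 CPM in the others, and CXCL8 at 545 and 671 CPM, against 538 and 258 CPM. Of the uroplakins, proteins of the umbrella cell surface, UPK1B had 0 UMIs in the 28 cells, against 42.6 and 6.09 CPM in the cells without S100A12. UPK3B was found in 1 of the 7 high cells of Injury_1 and in 10 of the 21 of Injury_2, at 7.37 and 44.6 CPM, against 248 and 85.7 CPM. Median depth was 19474 and 16563 UMIs in the high cells and 11564 and 16287 in the others.

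**Figure D3:**
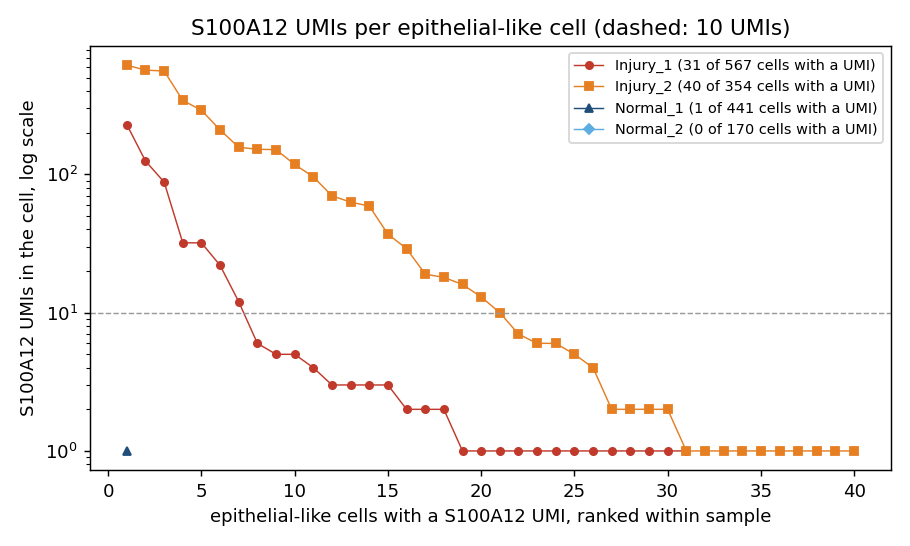
S100A12 UMIs (log axis) in each epithelial-like cell that had at least 1, ranked from highest to lowest within its sample, with a dashed line at 10 UMIs. The line is reached by 7 of 31 cells in Injury_1 and 21 of 40 in Injury_2, with highest cells at 229 and 616 UMIs, while Normal_1 shows 1 cell with 1 UMI and Normal_2 shows none.

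Summed over these cells, the other calgranulins were higher as well, but not evenly from cell to cell. All high cells of Injury_1 held UMIs of both, while several of Injury_2 held none of S100A9. In Injury_2 the cell with 568 S100A12 UMIs had 0 of S100A8 and 1 of S100A9, and the cell with 291 had 68 of S100A9. S100A8 was at 280 CPM in the high cells of Injury_1 and 163 in those of Injury_2, against 1.78 and 0.81 CPM in cells without S100A12. S100A9 was at 317 and 577 CPM, against 4.16 and 3.05 CPM. The balance of the 3 genes was unlike that of the CXCR1 cluster. S100A12 made up 79.0% and 91.0% of the UMIs of the 3 genes in all epithelial-like cells of Injury_1 and Injury_2. In the high cells it made up 87.0% and 92.7%, a share raised by picking these cells for S100A12. In the CXCR1 cluster it was 15.8% to 22.2% over all 4 samples. Apart from S100A9 and S100A8, genes higher in the high cells of both injured samples included LGALS3, a galectin (15062 against 7999 CPM in Injury_1 and 10604 against 5161 in Injury_2), KRT16, a keratin of wounded epithelium (36.8 against 8.91, and 118 against 29.2), and SERPINB5, a serpin of basal epithelia (317 against 168, and 291 against 151). KRT16 was found in 1 high cell of each sample. PIGR, which carries immunoglobulins across epithelia, split the samples, with 36.8 against 44.1 CPM in Injury_1 and 1547 against 32.5 in Injury_2. SPP1 (osteopontin) split them in the same way, with 12624 against 21639 CPM and 52214 against 9090 CPM.

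The kind of epithelial cell differed as well. Epithelial-like cells were divided by whether they held a UMI of KRT5, a keratin of basal cells, and of an uroplakin. In Injury_1, 323 of the 591 S100A12 UMIs lay in cells with KRT5 and no uroplakin and 37 in cells with an uroplakin and no KRT5. In Injury_2, 55 of the 3641 lay in cells with KRT5 and no uroplakin and 2245 in cells with an uroplakin and no KRT5. The samples were opposite for these kinds of cell. Cells with neither KRT5 nor an uroplakin held 227 UMIs in Injury_1 and 1271 in Injury_2, and cells with both held 4 and 70. Since a few cells hold most UMIs, each split rests on those cells. In Injury_1, 1 cell held 229 of the 323 UMIs.

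S100A8 and S100A9 were low in epithelial-like cells as a whole. S100A8 had 64, 93, 6 and 2 UMIs, or 8.82, 16.6, 1.14 and 0.66 CPM. S100A9 had 93, 268, 6 and 10 UMIs, or 12.8, 47.7, 1.14 and 3.31 CPM. The injured samples were above the normal ones for both genes. Pooled ratios were 12.6 (6.26 to 29.8) for S100A8 and 14.5 (8.82 to 25.7) for S100A9. Neither was called by edgeR (log2 fold change 3.51 ± 0.59, adjusted p = 0.0512, and 3.63 ± 0.89, adjusted p = 0.101), while DESeq2 gave adjusted p = 0.00121 and 0.000465. At 1000 UMIs per cell S100A8 was found in 0.74%, 1.33%, 0.092% and 0.049% of epithelial-like cells, against 0.53%, 0.29%, 0.13% and 0.21% of fibroblast-like cells. The normal epithelial shares were below those of fibroblast-like cells and are not read as expression. S100A9 was found in 1.09%, 2.37%, 0.096% and 0.76%, against 0.98%, 0.51%, 0.37% and 0.85% in fibroblast-like cells, and only the share of Injury_2 stood clearly above that. The shares differed between conditions by 0.964 percentage points for S100A8 and 1.30 for S100A9 (exact permutation test, p = 0.333 each, the smallest possible).

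Neutrophil markers in epithelial-like cells, summed over the 8 measured, stood at 748, 424, 213 and 619 CPM in the 4 samples. CXCR1, sparse in the CXCR1 cluster as well, was at 0 in all. The macrophage markers stood at 97.8, 28.1, 9.3 and 67.3 CPM. The ranges of injured and normal samples overlapped for both lists, and their part in the epithelial values was not tested.

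S100A9, but neither S100A8 nor S100A12, was high in a set of endothelial clusters. These clusters were led by the adhesion receptors SELE and SELP and by VWF, which mark activated and venular endothelium, and they were set apart after the levels had been seen. S100A9 had 1424 and 516 UMIs in 646 and 419 cells of the injured samples, and 1835 and 3168 UMIs in 779 and 456 cells of the normal ones. The levels were 283, 162, 391 and 747 CPM, with both injured samples below both normal samples. S100A8 stood at 7.35, 0.63, 0.85 and 0.71 CPM in the same cells, and S100A9 made up 95.3%, 97.7%, 99.7% and 99.9% of the UMIs of the 3 genes. The other endothelial-like clusters had S100A9 at 39.1, 17.8, 11.9 and 30.1 CPM.

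S100A9 was found in 38.1%, 34.4%, 45.6% and 60.1% of the SELE endothelial cells, at median depths of 7092, 6721, 5252 and 8382 UMIs. At 1000 UMIs per cell these shares were 13.6%, 10.4%, 18.1% and 25.4%, more than 10 times those of fibroblast-like cells. The difference in level between conditions was not called by edgeR (log2 fold change -1.46 ± 0.46 (SE), adjusted p = 0.818). edgeR called 0 of 6519 genes in these cells, with 313 genes at an unadjusted p under 0.05, while DESeq2 called 20. By cluster, S100A9 was at 330, 178, 517 and 798 CPM in the one led by SELP, SELE and VWF, and at 107, 95.1, 149 and 532 CPM in that led by SELE, VWF and EDN1. The normal samples were higher in both. In the cluster of ESM1 and KDR, genes of sprouting capillary endothelium, it was at 45.3, 25.9, 16.1 and 32.8 CPM, and in that of BMX and HEY1, genes of arterial endothelium, at 10.9, 5.6, 3.1 and 20.3 CPM. In these clusters the groups overlapped. SELE itself was at 672, 427, 547 and 628 CPM in the SELE clusters, with the groups overlapping. The neutrophil markers CXCR1 and G0S2 had 0 UMIs and 2 UMIs there. The summed neutrophil markers stood at 4690, 2082, 1842 and 1967 CPM and were mostly CXCL8 and PTGS2. Their part in the S100A9 level was not tested.

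**Figure D4:**
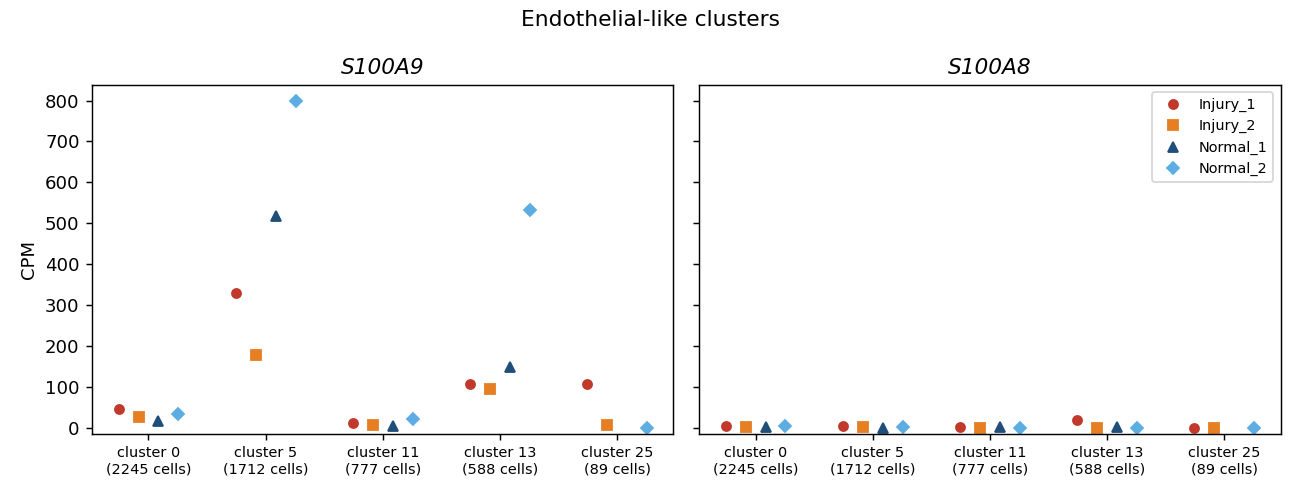
S100A9 (left) and S100A8 (right) level in CPM in the endothelial-like clusters, 1 point per sample: cluster 0 is led by ESM1 and KDR, 5 by SELP, SELE and VWF, 11 by BMX and HEY1, 13 by SELE, VWF and EDN1, and 25 by CCL21, PROX1 and LYVE1. In clusters 5 and 13 both normal samples lay above both injured ones for S100A9 (517 and 798 against 330 and 178 CPM in cluster 5), while S100A8 stayed under 20 CPM in all 5 clusters.

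The ratio of S100A8 to S100A9 UMIs was set against that of the CXCR1 cluster of the same sample, since free RNA of 1 source keeps its genes in 1 ratio in every group of cells. In these samples both genes came from several groups of cells in unlike ratios, so the comparison does not test for free RNA. The log2 ratio was -0.70, -0.83, -0.41 and -0.03 in the CXCR1 cluster. The LYZ cluster differed from it by 0.19 ± 0.40 (SD, n = 4; two-sided exact sign-flip permutation test, p = 0.375, adjusted p = 0.469), with the 4 differences between -0.40 and 0.49. Epithelial-like cells differed by -0.54 ± 1.11 (exact p = 0.5). Fibroblast-like cells differed by -1.09 ± 0.86 and all endothelial-like cells by -6.09 ± 1.44, lower in 4 of 4 samples each (exact p = 0.13, adjusted p = 0.208). Because this is the smallest p that 4 samples allow, no comparison could reach 0.05. The adjustment was over 5 groups, among them the SELE clusters, which are part of the endothelial-like cells. The SELE clusters differed by -7.37 ± 2.23. Because they were set apart for this very pattern, that value is read as a description and its p is not used.

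**Figure D5:**
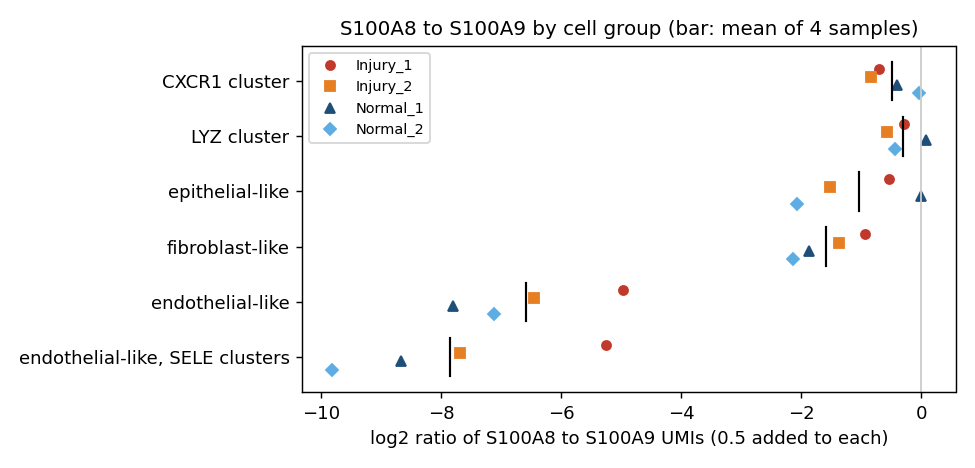
Log2 ratio of S100A8 to S100A9 UMIs (0.5 added to each) per sample in groups of cells with at least 10 UMIs of the pair in every sample, with a black bar at the mean of the 4 samples. The CXCR1 and LYZ clusters lay between -0.83 and 0.08, and the SELE endothelial clusters between -9.82 and -5.25.

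Over all kept cells of a sample, where fewer cells of a type and less RNA per cell cannot be told apart, the 3 genes differed in how far apart the conditions were. S100A8 was at 132, 60.1, 13.1 and 10.98 CPM, a ratio of injured to normal means of 7.98. S100A12 was at 65.8, 103, 2.14 and 2.28 CPM, a ratio of 38.3. S100A9 was at 217, 112, 92.7 and 101 CPM, a ratio of 1.70. The injured samples were above the normal ones for each gene, narrowly so for S100A9. None of the 3 was called by edgeR (S100A8 log2 fold change 2.98 ± 0.41, adjusted p = 0.136, S100A9 0.73 ± 0.35, adjusted p = 0.508, S100A12 5.24 ± 0.37, adjusted p = 0.136). It called 0.00955% of the 10475 genes tested, which is 1 gene, and DESeq2 gave adjusted p = 1.56e-08 for S100A8 and 2.74e-33 for S100A12.

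The summed values depended on which groups were in the sum. Without the SELE clusters, S100A9 was at 208, 109, 23.1 and 33.1 CPM, a ratio of 5.64. Without the CXCR1 and LYZ clusters it was at 50.5, 31.0, 80.1 and 91.8 CPM, a ratio of 0.474, so the order of the conditions turned. Without epithelial-like cells, S100A12 kept 62.7, 22.9, 2.66 and 2.44 CPM, a ratio of 16.8. Without both the CXCR1 cluster and epithelial-like cells it was at 5.54, 6.29, 0.563 and 1.43 CPM, a ratio of 5.94.

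In the remaining classes no member was called. In T cell-like cells S100A8 had 29, 27, 0 and 0 UMIs, of which 1 cell of Injury_2 held 25, so it was tested through its injured counts alone and no fitted fold is given (adjusted p = 0.202). S100A12 had 30, 30, 1 and 0 UMIs there, of which 1 cell of Injury_2 held 25. It too was tested through its injured counts alone, and no fitted fold is given (edgeR adjusted p = 0.271). S100A9 had 58, 54, 4 and 2 UMIs, of which 1 cell of Injury_2 held 49 (edgeR log2 fold change 1.67, adjusted p = 0.317). In T cell-like cells edgeR called 0.0220% of 4538 genes. In fibroblast-like cells S100A12 had 2.95 ± 0.41 (adjusted p = 0.13), and S100A8 1.36 (0.462) and S100A9 0.44 (0.836) were nearer to 0. edgeR called 0 of 8759 genes in fibroblast-like, 0 of 7515 in endothelial-like and 0 of 6517 in smooth muscle and pericyte-like cells, with 963, 540 and 641 at an unadjusted p under 0.05. DESeq2 called 259, 58 and 72 there.

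Genes around the calgranulins were read from lists by role. In epithelial-like cells, where 1.70% of all genes tested were called, none of the listed genes was, among them 5 tested of 8 measured members of the S100 family, 5 of 10 inflammatory ligands, 1 of 3 receptors and adaptors, 1 of 2 NADPH oxidase subunits, 5 of 6 regulators and 5 of 5 genes of wound epithelium. Median log2 fold changes were 0.18 for the S100 family, -0.39 for the ligands and -0.51 for wound epithelium, against -0.0023 over all genes tested. S100A14, an epithelial S100 protein, was at 171, 134, 36.8 and 70.6 CPM (log2 fold change 1.21, adjusted p = 0.178). S100A13 was at 396, 256, 240 and 238 CPM (0.18, adjusted p = 0.756). KRT16 was at 9.92, 36.3, 1.14 and 5.97 CPM (2.55, adjusted p = 0.221). These genes had the injured samples higher. Of the S100 family, S100A4 (log2 fold change -1.37) and S100A5 (-0.87) went the other way. Of wound epithelium, KRT17 (-1.51), TP63 (-0.60), KRT5 (-0.51) and IL1RN (-0.42) did so, and KRT16 alone was higher. None of the differences passed the threshold.

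Of the granule list, 8 measured genes, none passed the filter in epithelial-like cells. In macrophage-like cells, where 0.505% of all genes tested were called, 1 listed gene was, CHI3L1, a chitinase-like glycoprotein of activated macrophages and neutrophils, at 415, 251, 0 and 5.83 CPM (log2 fold change 6.39, adjusted p = 0.0155). CHI3L1 passed the filter on low counts through its injured counts alone, so the call adds no support to the counts. S100A4, another S100 protein of migrating cells, was at 1440, 1370, 1330 and 1568 CPM in these cells, with the groups overlapping. The receptor gene AGER had 2 UMIs in the CXCR1 cluster and 0.66 to 2.20 CPM in epithelial-like cells. CD14, an adaptor of Toll-like receptor 4, was at 2361, 1103, 1321 and 2669 CPM in the CXCR1 cluster.

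The genes most like each calgranulin were sought by the Pearson correlation of log2(CPM + 10) over the 24 sums of 6 classes in 4 samples, among 3196 genes. The sums of a sample share its library and depth, so r is a description. S100A8 went with MMP12 (r = 0.867), PDSS1 (0.860), ATP6V0D2 (0.787), SERPINB2 (0.762) and CHI3L1 (0.719), all highest in macrophage-like cells of an injured sample. S100A9 went with UBE2L6 (0.876), NOSTRIN (0.861), HERC6 (0.857), PLA2G2D (0.832) and DIPK2B (0.830), all highest in endothelial-like cells. S100A12 went with PIGR (0.958), CSTA (0.928), CES3 (0.924), INSL5 (0.911) and POF1B (0.847), all highest in epithelial-like cells of Injury_2. These 6 classes leave out the CXCR1 and LYZ clusters, in which S100A8 and S100A9 were highest.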

How the data were processed

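Single-cell RNA sequencing (Chromium Single Cell 3', version 3 kit) had been done on 2 injured and 2 normal rabbit bladders, 1 library each. The authors deposited raw UMI counts per gene and barcode from Cell Ranger (6.0.1 in the file headers), without normalization. The genome release is not given in the sources used here. The 4 libraries held 46863011, 46395632, 28745017 and 47881609 UMIs (Injury_1, Injury_2, Normal_1, Normal_2).

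Barcodes under 500 UMIs, under 200 genes or over 15% mitochondrial UMIs were dropped. The rest were integrated and clustered with Seurat 5.3.0 (R 4.3.3; 2000 variable genes without the 3 members, 30 components, resolution 0.8), and clusters were named from marker lists. Doublets were scored with Scrublet (scanpy 1.11.5) and kept, and those called numbered 94, 74, 11 and 157. UMIs were summed per sample and class, for classes with at least 20 cells in every sample, and tested with edgeR 4.0.16 (filterByExpr, TMM, quasi-likelihood, Benjamini-Hochberg over all genes, threshold 0.05). DESeq2 1.42.0 was an alternative. Shares of cells with a UMI were thinned to 1000 UMIs per cell by expectation. Single values were compared by exact permutation tests (SciPy 1.17.1). The tests were checked on simulated data, where edgeR recovered 33 of 50 genes changed 4-fold in epithelial-like cells and 2 of 50 changed 2-fold.

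The members and lists were chosen with earlier results of these data known. Named genes are the 3 members, the 5 genes most like each, and listed genes that were called or among the 4 highest of their list. The other genes (markers, genes of the S100A12-high cells, PTGS2, SPP1, KRT16, AGER and others) were named after their values had been seen. The planned reference of the S100A8 to S100A9 ratio was neutrophil-like cells, and the CXCR1 cluster stood in for it.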

Additional observations from a re-analysis of the deposited data

Results flagged for a closer look

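The difference in S100A9 between conditions had opposite signs in different cells, although edgeR called it in none of those tested. On the log2(CPM + 10) scale, every injured sample lay below every normal sample in the SELE endothelial clusters and above them in the 5 groups named next, while the conditions overlapped in fibroblast-like, smooth muscle and pericyte-like, other endothelial-like and HLA-DRA cells. The SELE clusters were set apart after the levels had been seen. The difference of the 2 effects was -2.63 against the CXCR1 cluster, -1.83 against the LYZ cluster, -3.07 against macrophage-like cells, -2.87 against epithelial-like cells and -2.32 against T cell-like cells. In T cell-like cells, 1 cell of Injury_2 held 49 of the 54 S100A9 UMIs of that sample, so the direction there rests on that cell. The difference itself was not tested.

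Barcodes left out by the filter on cells (730 and 612 in the injured and 1515 and 857 in the normal samples) also held the 3 genes. S100A8 was at 84.0 CPM in Injury_1 and 92.8 in Injury_2, against 5.32 and 5.12 in the normal samples. S100A9 was at 128.0 and 141.8 CPM, against 32.4 and 46.3. S100A12 was at 71.1 and 170.9 CPM, against 2.53 and 0. In the injured samples the 47 and 45 barcodes under 500 UMIs or 200 genes reached 2558 and 3921 CPM of S100A8. The filter thus removed barcodes of few UMIs or few genes that were rich in S100A8.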

How the results depend on the processing

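The limits are 2 samples per condition, few normal cells in the CXCR1 and LYZ clusters, and normal epithelial counts near 0. Of 200 fold changes of the members under alternatives, 160 kept their direction and side of the threshold, 36 newly passed it, 1 no longer passed (S100A12 in epithelial-like cells without Normal_1) and 3 reversed: S100A8 in endothelial-like cells (-0.64 to 2.14 with 1 sample left out) and S100A9 in smooth muscle and pericyte-like cells (-0.59 to 1.66), both lowest without Injury_1, and S100A9 in fibroblast-like cells (-0.15 to 1.65), lowest without Normal_1. Shares (21 values) and ratios (33) kept their direction. In epithelial-like cells S100A12 had log2 fold changes of 8.92 to 13.91 with 1 sample left out (adjusted p 1.82e-05 to 0.0524) and, with DESeq2, adjusted p = 9.29e-06. Levels kept 55 of 57 values, and at resolution 0.3, where the LYZ cells joined the macrophage-like class, its S100A8 and S100A9 means became 602.96 and 717.4 CPM.

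The samples share only a number, so pairing is not known from the labels. Deviations of same-numbered samples correlated at -0.001 to 0.228. With the number as a replicate block S100A12 in epithelial-like cells had a log2 fold change of 10.59 (adjusted p = 0.0439). Genes called with the block were 32 in T cell-like, 3 in endothelial-like, 25 in epithelial-like, 253 in fibroblast-like, 115 in macrophage-like, 104 in smooth muscle and pericyte-like cells, 2 in the SELE clusters and 276 in all kept cells, against 1, 0, 120, 0, 23, 0, 0 and 1 in that order without it. In the same order the count without a filter on low counts was 357, 4, 963, 575, 240, 152, 138 and 67, with DESeq2 76, 58, 485, 259, 60, 72, 20 and 425, and with 1 sample left out 60 to 136, 0 to 14, 58 to 651, 15 to 100, 57 to 304, 79 to 650, 12 to 149 and 1 to 137. A 10% mitochondrial limit gave 3 in T cell-like, 50 in epithelial-like, 3 in macrophage-like, 24 in smooth muscle and pericyte-like cells and 0 in all kept cells. Leaving out the highest doublet scores gave 0 in T cell-like, 9 in macrophage-like and 0 in all kept cells, and resolution 0.3 gave 5 in macrophage-like cells. The cause of these changes was not tested. The SELE clusters, the sums with groups left out, and the sum of all kept cells without the highest doublet scores were chosen after seeing the data.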

Other observations

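With the CXCR1, LYZ and HLA-DRA clusters added to the 6 classes (36 sums, 3611 genes, an alternative chosen after seeing the data), the nearest genes changed for each member. S100A8 was nearest to G0S2 (r = 0.966) and S100A9 (0.941), S100A9 to S100A8 (0.941) and VGLL4 (0.926), and S100A12 to LIMK2 (0.931) and TCN1 (0.923), a vitamin B12 carrier of neutrophil granules. These sums include cells of very low depth.

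The HLA-DRA cluster held 78 UMIs of S100A12 over 410 cells, at 7.43, 32.9, 0 and 62.8 CPM in Injury_1, Injury_2, Normal_1 and Normal_2. A small cluster led by the lymphatic genes CCL21, PROX1 and LYVE1 had S100A9 at 106 CPM in Injury_1, 7.1 in Injury_2 and 0 in Normal_2, with no cells in Normal_1.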
